A study of Mus musculus with 6 samples.

Results

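The 35 Kupffer cell and myeloid genes described here were chosen by symbol, as genes known to be used by the macrophages of the liver and by the blood cells related to them, and all 35 were found among the 21297 genes of the liver RNA-seq table. The study asked how liver gene expression differed after knockdown of *Mmab*, which encodes an enzyme that makes adenosylcobalamin. Male C57BL/6J mice on a chow diet, aged 8 weeks when treatment began, were given 50 mg/kg of a control antisense oligonucleotide (CON ASO) or of one against MMAB (MMAB ASO) by intraperitoneal injection once a week for 6 weeks, and livers were collected 48 h after the last injection. Both groups therefore carried an antisense oligonucleotide, and no liver without one was analysed here. RNA-seq covered 3 livers in each group, numbered 1, 2 and 4 in both. CON ASO 1 is given apart from CON ASO 2 and 4 throughout, because earlier results of these data showed it to stand apart from them in macrophage genes.

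Kupffer cells are the resident macrophages of the liver sinusoids. They clear bacteria, immune complexes, dying cells and old erythrocytes from portal blood through scavenger, complement and Fc receptors, and they are kept in place by signals from sinusoidal endothelial cells, stellate cells and hepatocytes. They also take up circulating oligonucleotides readily. Monocytes from blood can enter the liver and replace them. In RNA of whole liver, fewer cells of a type and less RNA per cell cannot be told apart.

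Values are CPM (counts of a gene scaled to a common library total), as the linear form of the deposited log2 values, and fold changes are on the log2(CPM + 0.0001) scale. The libraries held an estimated 44.7 to 55.4 M reads, so that 1 read was worth 0.0181 to 0.0224 CPM. *Mmab* was at 6.31, 5.30 and 6.83 CPM in CON ASO 1, 2 and 4 and at 1.87, 2.69 and 1.80 CPM in MMAB ASO 1, 2 and 4, so every liver followed its label. CON ASO 1 differed from the other 5 livers in library composition, with 25994 CPM of the ribosomal RNA gene CT010467.1 against 81353 to 112456 CPM, and with 57.0% of its reads in protein-coding genes against 46.2% to 51.1%.

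As a check of the name of the list, the defining Kupffer cell markers *Clec4f*, *Vsig4* and *Cd5l* were detected in all 6 livers, with at least 66.0 estimated reads in each. Of the other Kupffer surface receptors, *Cd163*, *Msr1* and *Adgre1* had 66.3, 51.2 and 38.9 estimated reads in their lowest liver. *Folr2*, *Timd4* and *Marco* had 13.2, 11 and 6.19. Most genes of blood monocytes were low. *Ly6c2*, which marks classical monocytes, lay between 0.0603 and 0.118 CPM, and among the 35 genes *Ccr2* and *Cx3cr1* had means under 1 CPM. Of 9 other monocyte markers, *Ly6c2* among them, 2 had a mean of at least 1 CPM. These were *Plac8*, at 0.476 to 1.40 CPM over the 6 livers, and *Nr4a1*, at 0.470 to 6.05 CPM. The summed level of the neutrophil markers was 0.506 to 1.03 CPM and that of the T and NK cell markers 1.75 to 2.5 CPM over the 6 livers. Of the 35 genes, 24 had a mean of at least 1 CPM and were tested with all 11565 such genes. The 11 that were not tested were *Timd4*, *Folr2*, *Fcgr1*, *Itgam*, *Itgb2*, *Aif1*, *Spi1*, *Spic*, *Cx3cr1*, *Ccr2* and *Cd86*. Of the 24, *Marco*, *Tyrobp* and *Fcer1g* reached the filter only with CON ASO 1, since their means over the other 5 livers were 0.512, 0.852 and 0.999 CPM. Per kilobase of exon, the mean level of the 35 genes ran from 0.0335 CPM per kb for *Itgam* to 10.7 CPM per kb for *Lyz2*, with a median of 0.727 CPM per kb.

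Promoter sequences from RefSeq (GRCm38.p6, 300 bases each, around the start that RefSeq annotates) were at hand for 26 of the 35 genes. The 4 below are shown because *C1qb* and *C1qc* lie near each other on chromosome 4 and were both called higher without CON ASO 1, *Vsig4* had the highest positive fold change of the tested members in both fits, and *Marco* stood apart from all other members. Capitals mark the letters GAGGAA, or TTCCTC on the other strand, the core bound by PU.1. PU.1 is encoded by *Spi1* and is required for the development of macrophages. The *C1qb* promoter is chr4:136886151-136886450, that of *C1qc* chr4:136892865-136893164, that of *Vsig4* chrX:96293389-96293688 and that of *Marco* chr1:120504975-120505274, all on the minus strand. Of their bases, 37 for *C1qb*, 201 for *C1qc*, 50 for *Vsig4* and 50 for *Marco* lie inside the gene's interval in the deposited table.

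C1qb: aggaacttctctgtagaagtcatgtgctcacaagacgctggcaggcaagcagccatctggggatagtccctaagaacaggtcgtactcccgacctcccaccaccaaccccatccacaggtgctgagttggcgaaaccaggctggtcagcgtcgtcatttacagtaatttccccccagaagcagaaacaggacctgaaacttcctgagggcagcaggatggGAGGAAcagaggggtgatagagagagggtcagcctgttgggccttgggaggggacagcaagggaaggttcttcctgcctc
C1qc: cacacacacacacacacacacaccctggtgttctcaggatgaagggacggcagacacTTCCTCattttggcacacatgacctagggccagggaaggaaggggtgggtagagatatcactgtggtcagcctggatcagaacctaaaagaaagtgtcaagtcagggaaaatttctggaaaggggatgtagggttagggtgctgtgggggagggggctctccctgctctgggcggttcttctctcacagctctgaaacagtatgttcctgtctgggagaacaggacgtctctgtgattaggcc
Vsig4: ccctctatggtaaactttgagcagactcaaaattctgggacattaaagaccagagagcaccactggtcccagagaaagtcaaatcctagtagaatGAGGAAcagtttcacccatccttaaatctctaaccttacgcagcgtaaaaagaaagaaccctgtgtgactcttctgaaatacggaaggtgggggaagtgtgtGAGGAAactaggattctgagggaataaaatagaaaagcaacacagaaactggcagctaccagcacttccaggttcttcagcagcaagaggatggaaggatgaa
Marco: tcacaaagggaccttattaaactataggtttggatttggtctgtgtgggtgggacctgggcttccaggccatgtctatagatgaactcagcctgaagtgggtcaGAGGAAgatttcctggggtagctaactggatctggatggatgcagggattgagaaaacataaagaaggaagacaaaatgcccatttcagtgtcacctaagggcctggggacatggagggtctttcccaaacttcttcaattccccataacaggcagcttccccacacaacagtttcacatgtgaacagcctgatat

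The 6 letters were found on either strand in 16 of 29 promoters of members (55.2%) and in 28.3% of all 32851 promoters of the same length. A match of this length is a description of the letters and not a bound site. The promoters of *C1qb*, *C1qc* and *Marco* each held 1 match and that of *Vsig4* held 2.

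Most of the 35 genes were higher in the MMAB ASO livers than in CON ASO 2 and 4. CON ASO 1 lay within or above the MMAB ASO range for many of them, a position whose share over all tested genes was not counted. With all 6 livers, the fit called *Clec4f* and *Vsig4* higher and *Id3* lower in MMAB ASO, out of 24 tested members (limma, adjusted p under 0.05, where 1.87% of all tested genes were called higher and 2.22% lower). Without CON ASO 1, 15 of the 24 were called higher and 0 lower, against 2.09% and 1.25% of all tested genes. With the filter set on the other 5 livers, an alternative added after seeing the data, 14 were called higher of the 21 members that then passed it, and the median log2 fold change of the 21 was 1.29. At an unadjusted p under 0.05, 13 members were higher (9.92% of all tested genes) and 2 lower (7.85%) with all livers, and 21 were higher (13.1%) and 2 lower (5.67%) without CON ASO 1. The median log2 fold change of the 24 members was 0.86 with all livers, beside 0.03 over all tested genes, and 1.30 without CON ASO 1, beside 0.09. The fits share 5 of the 6 livers, and CON ASO 1 was left out with its values known, so the second is not independent of the first. CON ASO 1 was above both other controls for 23 of the 24 tested members. Leaving it out therefore raises the fold changes of those 23 by construction.

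**Figure D1:**
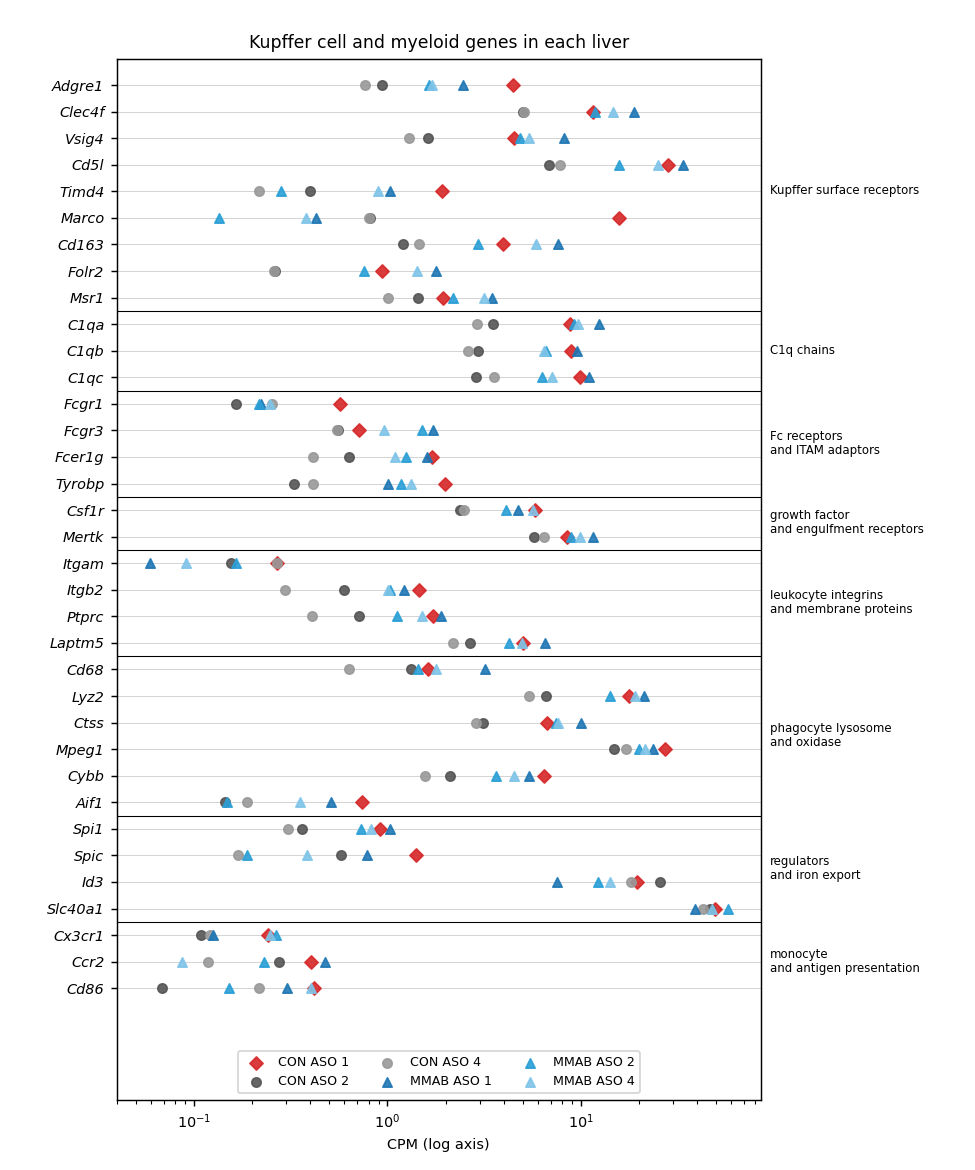
Level of each of the 35 genes in each liver, in CPM on a log axis, with 1 row per gene grouped by role. Red diamonds are CON ASO 1, grey circles CON ASO 2 and 4, and blue triangles the 3 MMAB ASO livers. In 25 of 35 rows every blue triangle lies to the right of both grey circles, and in 13 rows the red diamond is the highest of the 6 livers. Over all tested genes these shares are 26.9% and 34.2%.

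All 3 MMAB ASO livers were above all 3 CON ASO livers for 7 of the 24 tested members (*Clec4f*, *Vsig4*, *Msr1*, *C1qa*, *Fcgr3*, *Mertk* and *Ctss*) (13.8% of all tested genes). They were below all 3 for *Marco* and *Id3*, against 8.91% of all tested genes. They were above CON ASO 2 and 4 for 21 of the 24, against 26.9%. At the thresholds used in the study (a fold of 1.5 and an unadjusted limma p up to 0.05), 12 of 24 members were higher (5.52% of all tested genes) and 2 were lower (3.55%) with all livers, and 20 were higher (6.98%) without CON ASO 1.

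The counts turned on single livers. With all livers the number of members called higher was 15 without CON ASO 1, 2 without CON ASO 2, 3 without MMAB ASO 2 and 0 without CON ASO 4, without MMAB ASO 1 or without MMAB ASO 4. With CON ASO 1 already left out, it was 7 without CON ASO 2, 7 without CON ASO 4, 11 without MMAB ASO 1, 14 without MMAB ASO 2 and 6 without MMAB ASO 4. The number of all genes called in either direction moved as well, from 473 with all livers to between 157 (without MMAB ASO 4) and 536 (without CON ASO 2). Without CON ASO 1 it went from 386 to 116 without CON ASO 2, 220 without CON ASO 4, 331 without MMAB ASO 1, 307 without MMAB ASO 2 and 61 without MMAB ASO 4. In those last fits 1 control or 2 MMAB ASO livers remained in a group, and a lone control was assumed to vary like the MMAB ASO livers. *Clec4f*, *C1qa*, *C1qb*, *Lyz2* and *Ctss* passed an adjusted p of 0.05 (limma) in all 16 alternative fits made without CON ASO 1, each with 1 other choice changed, and *Vsig4* in all 15 in which it was tested.

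Surface receptors found on Kupffer cells, including those restricted to them, made up 9 members. *Clec4f*, a C-type lectin that in the mouse liver is restricted to Kupffer cells (chr6:83644542-83656187, minus strand), was at 11.6, 5.06 and 5.10 CPM in CON ASO 1, 2 and 4 and at 18.8, 11.9 and 14.7 CPM in MMAB ASO 1, 2 and 4. All 3 MMAB ASO livers were above all 3 controls, and CON ASO 1 was only just below MMAB ASO 2. Its log2 fold change was 1.15 ± 0.28 (SE, limma, adjusted p = 0.0448) with all livers and 1.55 ± 0.19 (SE, adjusted p = 0.00611) without CON ASO 1. With all livers the adjusted p ran from 0.00611 to 0.197 over the alternatives, and the exact two-sided permutation p over the 6 livers was 0.1, the lowest this design can give.

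*Vsig4*, a complement receptor that binds C3b and captures bacteria from the blood (chrX:96247203-96293438, minus strand), was at 4.5, 1.63 and 1.30 CPM in CON ASO 1, 2 and 4 and at 8.22, 4.83 and 5.41 CPM in MMAB ASO 1, 2 and 4. The groups did not overlap, and CON ASO 1 was again the control nearest to the MMAB ASO livers. The log2 fold change was 1.501 ± 0.38 (SE, limma, adjusted p = 0.0491) with all livers and 2.04 ± 0.25 (SE, adjusted p = 0.00611) without CON ASO 1. The call with all livers was lost under 9 of 15 alternatives, with adjusted p-values of 0.00611 to 0.205 over them.

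*Cd5l* encodes a secreted macrophage protein that protects macrophages from apoptosis (chr3:87357881-87371073, plus strand). It was at 28.2, 6.87 and 7.77 CPM in CON ASO 1, 2 and 4 and at 33.8, 15.7 and 24.98 CPM in MMAB ASO 1, 2 and 4. CON ASO 1 was second only to MMAB ASO 1, while the other controls were the lowest of the 6 livers. With all livers its log2 fold change of 1.04 ± 0.44 (SE, limma, adjusted p = 0.236) missed the threshold, and without CON ASO 1 it was 1.69 ± 0.27 (SE, adjusted p = 0.0135).

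*Cd163*, the receptor for haptoglobin-hemoglobin complexes, was at 3.94, 1.20 and 1.45 CPM in CON ASO 1, 2 and 4 and at 7.66, 2.93 and 5.86 CPM in MMAB ASO 1, 2 and 4. Its log2 fold change was 1.42 (limma, adjusted p = 0.0918) with all livers and 1.95 (adjusted p = 0.023) without CON ASO 1. CON ASO 1 lay within the range of the MMAB ASO livers, and the other controls lay below it. *Msr1*, the class A scavenger receptor, was at 1.95, 1.44 and 1.01 CPM in the controls and at 3.49, 2.19 and 3.15 CPM in the MMAB ASO livers. Its groups did not overlap, and its log2 fold change was 1.03 (limma, adjusted p = 0.0644) with all livers and 1.27 (adjusted p = 0.0417) without CON ASO 1. *Folr2*, a folate receptor of resident macrophages, was under the filter at 0.939, 0.262 and 0.259 CPM in the controls and 1.78, 0.757 and 1.43 CPM in the MMAB ASO livers. With no filter its log2 fold change without CON ASO 1 was 2.26 (limma, adjusted p = 0.052). An antisense gene, *Gm10602*, overlaps *Folr2*, and the strand used in counting was not given in the sources used here.

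*Adgre1* and *Timd4* did not share this order. *Adgre1*, which encodes the macrophage antigen F4/80, was at 4.48, 0.934 and 0.763 CPM in CON ASO 1, 2 and 4 and at 2.46, 1.65 and 1.70 CPM in MMAB ASO 1, 2 and 4. CON ASO 1 was the highest liver, and the other controls were below all MMAB ASO livers. The log2 fold change was 0.37 ± 0.52 (SE, limma, adjusted p = 0.779) with all livers, -0.10 without CON ASO 4, and 1.17 ± 0.29 (SE, adjusted p = 0.0623) without CON ASO 1. *Timd4*, a phosphatidylserine receptor that marks Kupffer cells of embryonic origin, was at 1.91, 0.397 and 0.216 CPM in the controls and at 1.04, 0.282 and 0.894 CPM in the MMAB ASO livers. It was under the filter and was not tested, and MMAB ASO 2 lay below CON ASO 2.

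*Marco* stood apart from every other member. *Marco* encodes a scavenger receptor for bacteria and particles that Kupffer cells carry constitutively (chr1:120474538-120505024, minus strand). It was at 15.7, 0.813 and 0.805 CPM in CON ASO 1, 2 and 4 and at 0.426, 0.134 and 0.380 CPM in MMAB ASO 1, 2 and 4. All 3 MMAB ASO livers were below all 3 controls, and CON ASO 1 was 19.4 times the mean of the other controls, taken on the log2 scale. Its log2 difference between CON ASO 1 and the other controls was 4.28, and it was among the tested genes only through CON ASO 1, so its place among them is not given. Its log2 fold change between groups, -2.96 ± 0.93 (SE, limma, adjusted p = 0.108) with all livers and -1.54 ± 0.61 (SE, adjusted p = 0.217) without CON ASO 1, did not pass in either fit. The exact two-sided permutation p was 0.1, the smallest possible.

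The complement component C1q is made in the liver mainly by macrophages, as a complex of A, B and C chains. The 3 chain genes lie next to each other on the minus strand of chromosome 4, at chr4:136895917-136898803 (*C1qa*), chr4:136889804-136893065 (*C1qc*) and chr4:136880129-136886187 (*C1qb*). *C1qa* was at 8.77, 3.50 and 2.92 CPM in CON ASO 1, 2 and 4 and at 12.4, 9.18 and 9.66 CPM in MMAB ASO 1, 2 and 4. *C1qb* was at 8.91, 2.93 and 2.61 CPM in the controls and at 9.56, 6.58 and 6.46 CPM in the MMAB ASO livers. *C1qc* was at 9.91, 2.87 and 3.57 CPM in the controls and at 11.1, 6.28 and 7.12 CPM in the MMAB ASO livers. For each chain CON ASO 2 and 4 were the lowest livers and MMAB ASO 1 the highest, and CON ASO 1 lay within the MMAB ASO range for *C1qb* and *C1qc* and just below it for *C1qa*.

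None of the 3 chains passed with all livers, at log2 fold changes of 1.21, 0.86 and 0.76 for *C1qa*, *C1qb* and *C1qc* and adjusted p-values (limma) of 0.0619, 0.253 and 0.319. At an unadjusted p under 0.05, *C1qa* and *C1qb* would have passed. Without CON ASO 1 all 3 were called higher, at 1.69 ± 0.18 (SE, limma, adjusted p = 0.00353) for *C1qa*, 1.42 ± 0.20 (SE, adjusted p = 0.0102) for *C1qb* and 1.30 ± 0.24 (SE, adjusted p = 0.0239) for *C1qc*. *C1qa* was higher in 3 of 3 MMAB ASO livers than in any control.

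**Figure D2:**
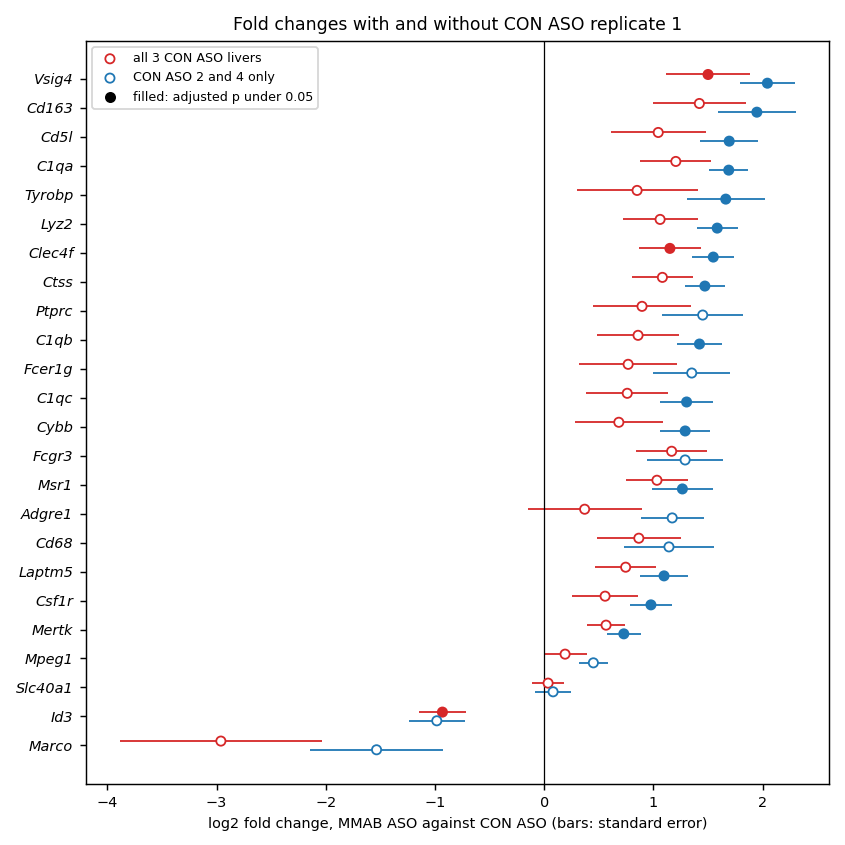
Log2 fold change of MMAB ASO against CON ASO for the 24 tested members, with bars of 1 standard error from limma. Red symbols use all 3 CON ASO livers and blue symbols CON ASO 2 and 4 only, and filled symbols have an adjusted p under 0.05. The blue values lie further from 0 than the red for most members, from 2.04 for *Vsig4* at the top, and *Id3* and *Marco* lie below 0 in both.

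Fc receptors and the adaptors that carry their signal made up 4 members. *Tyrobp* encodes the adaptor DAP12, which has an ITAM, the short tyrosine motif that recruits kinases. It was at 1.99, 0.329 and 0.411 CPM in CON ASO 1, 2 and 4 and at 1.01, 1.18 and 1.32 CPM in MMAB ASO 1, 2 and 4, with CON ASO 1 highest and the other controls lowest. The log2 fold change was 0.85 (limma, adjusted p = 0.468) with all livers and 1.66 (adjusted p = 0.0401) without CON ASO 1. The latter fit tested it only because CON ASO 1, which the fit leaves out, raised its mean over the filter. *Fcer1g*, the common gamma chain of Fc receptors, had the same order at 1.71, 0.632 and 0.410 CPM in the controls and 1.60, 1.25 and 1.10 CPM in the MMAB ASO livers, and passed in neither fit (adjusted p = 0.414 and 0.0756 from limma). *Fcgr3*, a low-affinity activating IgG receptor, was at 0.716, 0.556 and 0.552 CPM in the controls and at 1.71, 1.51 and 0.963 CPM in the MMAB ASO livers. Here CON ASO 1 sat with the other controls and the groups did not overlap, but neither fit passed (adjusted p = 0.068 and 0.084 from limma). Reads of *Fcgr3* may be shared with its near-identical neighbour *Fcgr2b*, so the split between them is uncertain. *Fcgr1*, the high-affinity IgG receptor, was under the filter at 0.571, 0.165 and 0.254 CPM in the controls and 0.223, 0.217 and 0.246 CPM in the MMAB ASO livers.

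Of the growth factor and engulfment receptors, both passed only in the fit without CON ASO 1. *Csf1r*, the receptor for CSF1 on which macrophages depend for survival, was at 5.82, 2.37 and 2.49 CPM in CON ASO 1, 2 and 4 and at 4.73, 4.08 and 5.68 CPM in MMAB ASO 1, 2 and 4. CON ASO 1 was above all MMAB ASO livers and the other controls below them. Its log2 fold change was 0.56 (limma, adjusted p = 0.363) with all livers and 0.98 (adjusted p = 0.030) without CON ASO 1. *Hmgxb3* overlaps it on the opposite strand. *Mertk*, a receptor for dying cells, was at 8.51, 5.72 and 6.44 CPM in the controls and at 11.5, 8.94 and 9.92 CPM in the MMAB ASO livers. Its groups did not overlap, and its log2 fold change was 0.57 (limma, adjusted p = 0.104) with all livers and 0.73 (adjusted p = 0.041) without CON ASO 1.

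Integrins and other membrane proteins of leukocytes made up 4 members. *Ptprc*, the leukocyte antigen CD45, was at 1.72, 0.713 and 0.410 CPM in the controls and at 1.90, 1.13 and 1.51 CPM in the MMAB ASO livers, and passed in neither fit (adjusted p = 0.327 and 0.0706 from limma). *Laptm5*, a lysosomal membrane protein of blood cells, was at 5.01, 2.67 and 2.18 CPM in the controls and at 6.53, 4.27 and 4.94 CPM in the MMAB ASO livers, and passed only without CON ASO 1, at a log2 fold change of 1.10 (limma, adjusted p = 0.030). For both genes CON ASO 1 lay within the MMAB ASO range. *Itgb2*, the common chain of the leukocyte integrins, was at 1.45, 0.596 and 0.294 CPM in the controls and at 1.22, 1.04 and 1.01 CPM in the MMAB ASO livers. *Itgam*, its partner CD11b, was at 0.270, 0.156 and 0.270 CPM in the controls and at 0.0595, 0.164 and 0.0908 CPM in the MMAB ASO livers, so that 2 of 3 MMAB ASO livers were below all controls. *Itgam* rested on an estimated 2.93 to 13.8 reads per liver, and neither integrin was tested.

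Lysosomal and oxidase genes of phagocytes included *Lyz2*, which encodes lysozyme and had the highest level per length of all members (chr10:117277331-117282321, minus strand). It was at 17.7, 6.59 and 5.40 CPM in CON ASO 1, 2 and 4 and at 21.1, 14.2 and 19.1 CPM in MMAB ASO 1, 2 and 4. CON ASO 1 lay within the MMAB ASO range, far above the other controls. Its log2 fold change was 1.06 ± 0.34 (SE, limma, adjusted p = 0.121) with all livers and 1.58 ± 0.19 (SE, adjusted p = 0.00579) without CON ASO 1, and reads may be shared with its near-identical copy *Lyz1*. *Ctss*, the lysosomal protease cathepsin S, was at 6.71, 3.11 and 2.87 CPM in the controls and at 10.1, 7.41 and 7.62 CPM in the MMAB ASO livers. Its groups did not overlap, and its log2 fold change was 1.08 (limma, adjusted p = 0.0525) with all livers and 1.47 (adjusted p = 0.00611) without CON ASO 1. *Ctss* overlaps the pseudogene Hmgb1-ps5, and *Ptprc* overlaps A130071D04Rik.

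*Cybb*, the catalytic subunit of the phagocyte NADPH oxidase, was at 6.45, 2.11 and 1.57 CPM in the controls and at 5.40, 3.64 and 4.52 CPM in the MMAB ASO livers. CON ASO 1 was the highest liver and the other controls the lowest, and the log2 fold change was 0.68 (limma, adjusted p = 0.420) with all livers and 1.29 (adjusted p = 0.0219) without CON ASO 1. *Mpeg1*, a pore-forming protein of macrophages, had the same order over a narrower range, at 27.3, 14.8 and 17.1 CPM in the controls and 23.7, 20.1 and 21.6 CPM in the MMAB ASO livers. It passed in neither fit (adjusted p = 0.685 and 0.110 from limma). *Cd68*, a lysosomal glycoprotein used to stain macrophages, was at 1.62, 1.32 and 0.633 CPM in the controls and at 3.20, 1.45 and 1.78 CPM in the MMAB ASO livers, with CON ASO 1 above MMAB ASO 2, and passed in neither fit (adjusted p = 0.261 and 0.175 from limma). *Aif1*, which encodes the actin-binding protein IBA1, was under the filter at 0.742, 0.145 and 0.188 CPM in the controls and 0.512, 0.148 and 0.353 CPM in the MMAB ASO livers.

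Regulators and the iron exporter did not share one order. *Id3*, an inhibitor of DNA binding that Kupffer cells need in the mouse and that other liver cells also express (chr4:136143497-136145755, plus strand), was at 19.5, 25.8 and 18.2 CPM in CON ASO 1, 2 and 4 and at 7.54, 12.2 and 14.2 CPM in MMAB ASO 1, 2 and 4. Every MMAB ASO liver was below every control, and CON ASO 1 lay between the other controls. Its log2 fold change was -0.93 ± 0.22 (SE, limma, adjusted p = 0.0372) with all livers and -0.98 ± 0.26 (SE, adjusted p = 0.0759) without CON ASO 1, with an adjusted p from 0.0203 to 0.0977 over the alternatives with all livers. *Id1*, its paralog, was at 3.25, 7.29 and 3.52 CPM in the controls and at 1.91, 2.35 and 2.87 CPM in the MMAB ASO livers (adjusted p = 0.118 from limma with all livers).

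*Slc40a1*, the iron exporter ferroportin, had a mean level of 5.25 CPM per kb and was at 49.4, 46.8 and 43.1 CPM in the controls and 39.1, 57.8 and 47.5 CPM in the MMAB ASO livers. The MMAB ASO range spanned the controls, and the log2 fold change was 0.04 ± 0.15 (SE, limma, adjusted p = 0.938) with all livers. *Spi1* was at 0.921, 0.361 and 0.307 CPM in the controls and at 1.03, 0.729 and 0.827 CPM in the MMAB ASO livers, and *Spic*, a related factor needed for iron-recycling macrophages in the mouse spleen, was at 1.40, 0.575 and 0.170 CPM and at 0.788, 0.187 and 0.384 CPM. Both were under the filter, and only for *Spi1* were all MMAB ASO livers above CON ASO 2 and 4.

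Monocyte and antigen presentation genes had low mean levels of 0.0391 to 0.071 CPM per kb, and none was tested. *Ccr2*, the receptor that brings monocytes into tissue, was at 0.401, 0.274 and 0.118 CPM in the controls and 0.477, 0.231 and 0.0870 CPM in the MMAB ASO livers, with the groups fully overlapping. *Cx3cr1*, the fractalkine receptor, was at 0.241, 0.108 and 0.121 CPM and at 0.125, 0.266 and 0.246 CPM, and its interval overlaps several other genes. *Cd86*, a costimulatory protein, was at 0.417, 0.0686 and 0.216 CPM and at 0.304, 0.152 and 0.402 CPM. These values rested on 3.8 to 23.5 estimated reads per liver, and in the fit with no filter their adjusted p-values (limma) were 0.749 to 0.954 with all livers and 0.483 to 0.911 without CON ASO 1.

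CON ASO 1 was above both other controls for 33 of the 35 genes, all but *Itgam* and *Id3*, where 62.1% of all tested genes were. It was at least 1.5 times both for 27 of 35, and for 18 of the 24 tested members, against 3.59% of all tested genes. It was the highest of all 6 livers for 13 of 35 and 7 of 24, shares near the 34.2% of all tested genes. CON ASO 2 was the highest for 1 tested member (11.5% of all tested genes) and CON ASO 4 for 0 (4.01%). *Marco*, *Tyrobp* and *Fcer1g* are among the 7 and among the 18, and they entered the 24 only through CON ASO 1. The filter therefore bears on these counts and on the median over the 24 given below. CON ASO 1 lay within the MMAB ASO range for 13, above it for 15 and below it for 7. The shares of all tested genes in these positions were not counted, so these counts are not read as particular to the members. The median log2 difference of CON ASO 1 from the mean of CON ASO 2 and 4 was 1.51 over the 24 tested members, beside 0.19 over all tested genes, and the median absolute log2 difference between CON ASO 2 and 4 over the 24 was 0.28. Of the members that pass the filter without CON ASO 1, *Adgre1* and *Cd5l* stood furthest above the other controls. This is 1 liver with no replicate, so it was not tested.

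**Figure D3:**
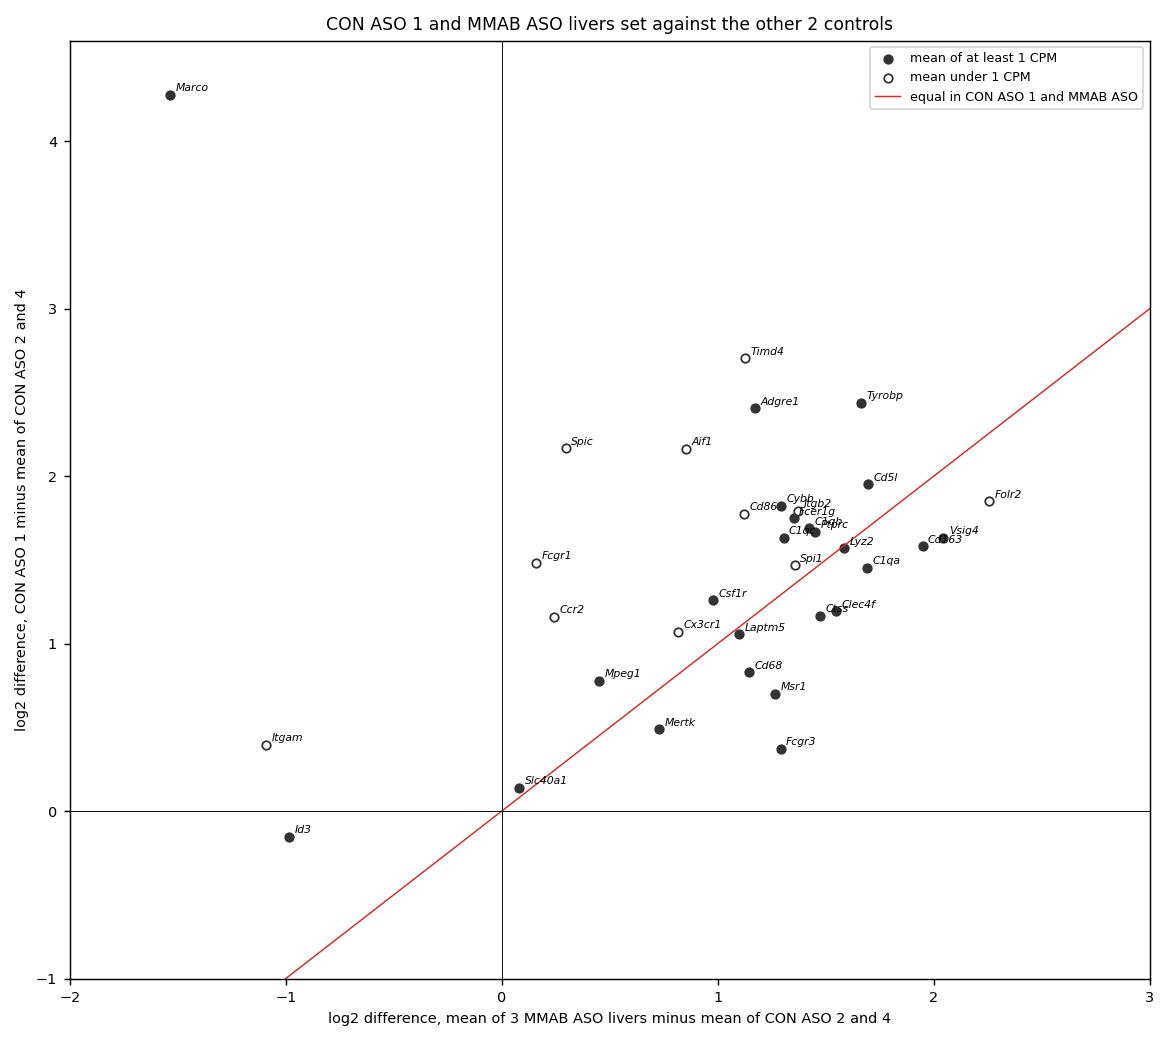
For each of the 35 genes, the log2 difference of CON ASO 1 from the mean of CON ASO 2 and 4 (vertical) against that of the mean MMAB ASO liver from the same controls (horizontal), with open circles for means under 1 CPM. Both axes share CON ASO 2 and 4, so no relation is read from the spread, and the red line marks equal levels in CON ASO 1 and MMAB ASO. *Marco* lies far above the line at 4.28, and *Clec4f*, *Vsig4*, *Msr1* and *Fcgr3* lie below it.

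The genes that stood highest in CON ASO 1 over the next liver, among those of at least 1 CPM there and with 0.1 added to every value, were *Marco*, *Cxcl13*, *Siglece*, *Cyp2b10*, *Pou2f2*, *Ctla2b*, *Gbp11*, *Gm37206*, *Saa3* and *Adgre4*. *Marco* is the only member among them, and they were picked for this difference after their values were seen. Several are used by immune cells. *Cxcl13*, a B cell chemokine, was at 2.02 CPM against 0 to 0.284 CPM in the other 5 livers, and *Saa3*, an acute phase protein, was at 13.97 CPM against 1.27 to 4.77 CPM. *Lcn2*, another acute phase gene, was at 53.3, 2.65 and 32.8 CPM in CON ASO 1, 2 and 4 and at 2.89, 2.34 and 1.13 CPM in MMAB ASO 1, 2 and 4, so that it was high in CON ASO 4 too, where the members were low. With every library scaled to its protein-coding sum, the median difference of CON ASO 1 from the other controls over the 24 members was 1.30 and that of *Marco* 4.06.

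**Figure D4:**
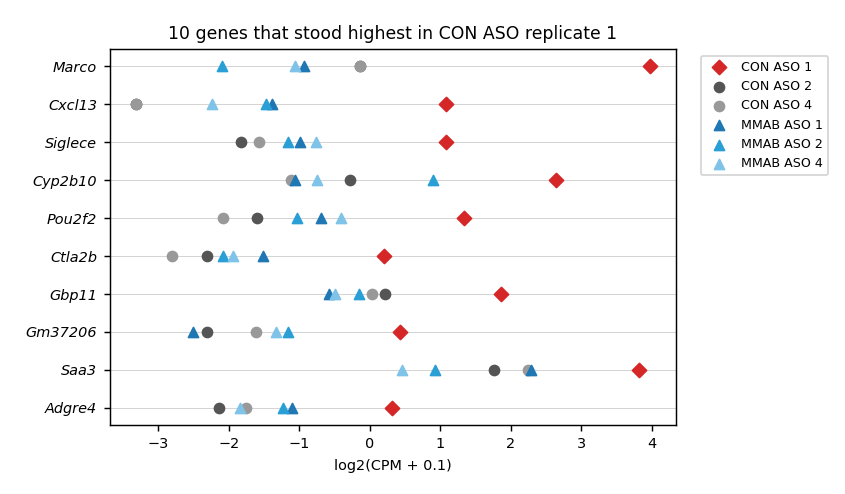
The 10 genes that stood highest in CON ASO 1 over the next highest liver, as log2(CPM + 0.1) in each liver, with red diamonds for CON ASO 1, grey circles for CON ASO 2 and 4 and blue triangles for MMAB ASO. They were picked for this gap. *Marco*, the only member among them, has the widest gap, 4.11 on this scale.

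Of 71 tested genes in 12 related pathway lists that are not members, 7 were called higher with all livers (9.86%, against 1.87% of all tested genes) and 11 without CON ASO 1 (15.5%, against 2.09%). In the list of Fc receptors and ITAM signalling, 1 of 5 tested genes was called higher in both fits, the inhibitory receptor *Fcgr2b*, which sinusoidal endothelial cells also express strongly (log2 fold change 1.24, adjusted p = 0.00536 from limma with all livers). Among scavenger and lectin receptors 1 of 7 was called with all livers (*Stab1*) and 3 of 7 without CON ASO 1 (*Stab1*, *Mrc1* and *Fcna*), of which *Stab1* and *Mrc1* are also genes of sinusoidal endothelial cells. Among Kupffer cell transcription regulators 1 of 10 was called higher in both fits, *Maf*, at a log2 fold change of 0.75 (adjusted p = 0.013 from limma with all livers). Of 7 tested genes of lipid-associated macrophages, *Spp1* and *Cd63* were higher in both fits. No gene passed in either fit among the tested genes of complement receptors (2), iron and heme recycling (8), NADPH oxidase partners (2), macrophage activation (2) and the cell cycle (2), where 4 of 16 had an unadjusted limma p under 0.05 with all livers and 5 without CON ASO 1. A gene each passed without CON ASO 1 only among engulfment genes (*Axl*, of 7) and lysosomal partners (*Lgmn*, of 13). In the list of ligands taken as possible signals to Kupffer cells, *Bmp2* and *Gdf2* were higher in both fits, out of 6 tested. Their log2 fold changes were 1.06 and 0.82 with all livers (adjusted p = 0.0124 and 0.0158 from limma). *Tgfb1* and *Jag1* were at 0.72 and 0.30, and *Csf1* and *Cxcl12* at -0.38 and -0.38, and none of these passed in either fit.

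Markers of other sinusoidal cells were higher in MMAB ASO livers too, and in CON ASO 1 their median lay between the other controls and the MMAB ASO livers. Of 12 tested sinusoidal endothelial markers 7 were called higher with all livers and 9 without CON ASO 1, and of 12 stellate cell markers 7 and 6. The summed endothelial level was 46.0 to 72.4 CPM in CON ASO and 101 to 119 CPM in MMAB ASO livers, and the summed stellate level 92.4 to 123 CPM and 157 to 187 CPM. *Ehd3* (endothelial) was at 12.8, 9.85 and 9.54 CPM in CON ASO 1, 2 and 4 and at 24.4, 27.6 and 24.4 CPM in MMAB ASO 1, 2 and 4, with no overlap. Relative to the mean of CON ASO 2 and 4, CON ASO 1 had a median log2 level of 1.51 for the members, 0.59 for endothelial and 0.29 for stellate markers, and MMAB ASO livers had 1.03 to 1.64, 0.93 to 1.27 and 0.63 to 0.96. Over all tested genes the median was 0.19 in CON ASO 1 and 0.04 to 0.16 in MMAB ASO livers. The stellate median of CON ASO 1 was therefore little above that of all tested genes. The median over the hepatocyte markers lay between -0.24 and 0.07 in every liver, and 0 of 12 passed in either fit (2 and 1 at an unadjusted limma p under 0.05). The part that a different share of sinusoidal cells had in the members' values was not tested.

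**Figure D5:**
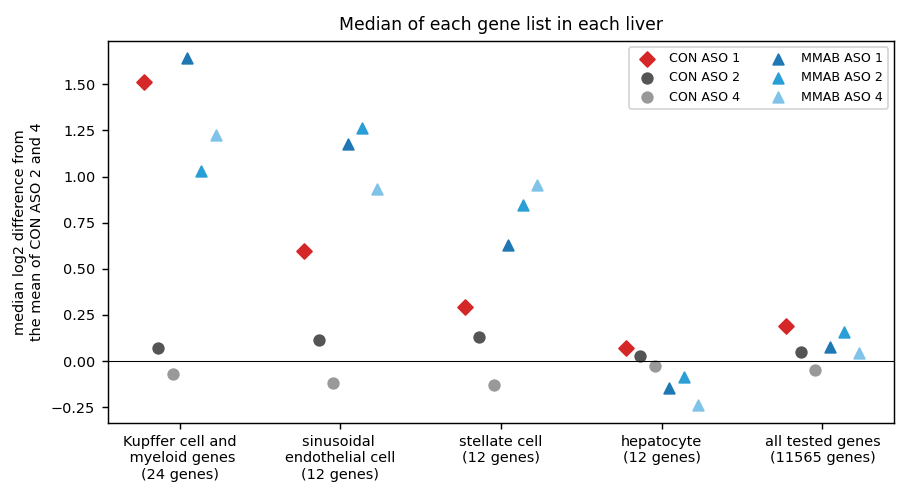
Median log2 difference from the mean of CON ASO 2 and 4, over the tested genes of each list, in each liver. Red diamonds are CON ASO 1, grey circles CON ASO 2 and 4 and blue triangles MMAB ASO livers. For the Kupffer cell and myeloid genes CON ASO 1, at 1.51, lies among the MMAB ASO livers (1.03 to 1.64), while for endothelial and stellate markers it lies below them.

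Among the remaining lists, the summed level of monocyte markers was 2.37 to 4.92 CPM in CON ASO and 3.39 to 8.96 CPM in MMAB ASO livers, that of dendritic cell markers 11.7 to 18.2 and 19.2 to 21.9 CPM, and that of spleen and peritoneal macrophage markers 14.03 to 29.6 and 13.7 to 16.2 CPM. None of the 2, 5 and 2 tested genes of these lists passed in either fit (1, 3 and 1 at an unadjusted limma p under 0.05 with all livers), nor did the 1 tested gene each of the B cell and cholangiocyte lists. Of 3 tested erythroid genes *Hbb-bs* passed without CON ASO 1 only. No neutrophil, T or NK cell marker reached the filter.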

How the data were processed

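RNA-seq of 6 livers was analysed, 3 for each oligonucleotide. Per the labels and the study's methods, ribosomal RNA was depleted, STAR aligned the reads to a mouse genome within PartekFlow 8.0.19.0405, and the Partek E/M algorithm assigned them to genes. The values the authors deposited are log2 of CPM, with each library scaled to its total count and 0.0001 added. Tests took these log2 values unchanged. Coordinates are those of GRCm38, and 31 of the 35 members had the same ones in GENCODE M21. Read totals were estimated from the commonest low value of each library. Only 58.3% to 59.8% of values up to 20 reads were whole within 0.01 of a read, so no count test was run.

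Groups were compared with limma 3.58.1 (R 4.3.3) over the 11565 genes averaging 1 CPM or more, with the trend option, two-sided, without covariates and with Benjamini-Hochberg adjustment over all of them at 0.05, once with all livers and once without CON ASO 1. A group holds 3 livers or fewer, which limits the precision. Alternatives were a filter at 5 CPM or none, a pseudocount of 0.1 or 1, median-ratio, quantile and protein-coding sum scaling, no variance trend, array weights, a replicate block and leaving out each liver. The alternatives for CON ASO 1 against the other controls, and the filter on the other 5 livers, were chosen after seeing the data. All 35 members are named, and genes of other lists by their smallest adjusted p, except that all 6 tested ligands are named. The members, lists and tests were chosen with earlier results of these data known. The promoter motif was searched on both strands. Python 3.11.15 with pandas 2.3.3 and matplotlib 3.10.9 made the tables and plots.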

Additional observations from a re-analysis of the deposited data

How the results depend on the processing

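With all livers, the members called higher numbered 2 and those called lower 1. The numbers higher and lower were 0 and 0 with no filter, with median-ratio scaling and with quantile normalization, 1 and 1 with a filter at 5 CPM, 4 and 0 with protein-coding sum scaling, 1 and 0 with no variance trend and 12 and 1 with array weights. Over all genes, 255, 472, 424, 268, 633, 332 and 768 were called in these settings, in that order, against 473 in the main fit. Leaving out each liver gave 0 to 15 higher and 0 to 2 lower. Without CON ASO 1, 15 members were called higher, 7 with no filter, 7 with a filter at 5 CPM, 6 with median-ratio scaling and 6 with quantile normalization, and leaving out a further liver gave 6 to 14. No setting called a member lower there. Over all genes, 386 were called without CON ASO 1, 166 with no filter, 177 with a filter at 5 CPM, 258 with median-ratio scaling and 183 with quantile normalization. The causes were not tested, except that no filter raises the number of tests to 21297 and a filter at 5 CPM leaves fewer members. With a pseudocount of 1, the median log2 fold change without CON ASO 1 was 0.79 in place of 1.30, the median difference of CON ASO 1 from the other controls 1.02 in place of 1.51, and that of Marco 3.21 in place of 4.28, since a larger pseudocount shrinks differences of low genes.

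The replicate block gave 7 higher and 2 lower with all livers and 9 higher without CON ASO 1, where 430 and 337 of all genes were called. Same-numbered livers had correlations of their deviations of -0.02, 0.05 and -0.01, beside -0.04 to 0.05 for livers of different numbers. These values gave no sign that the numbers pair the livers, but with so few livers they cannot exclude it. Only *Slc40a1* and *Adgre1* changed sign, from log2 fold changes of 0.04 and 0.37 in the main fit with all livers. With all livers, the log2 fold change of Slc40a1 was -0.034 with array weights and -0.11 to 0.18 when each liver was left out, and that of Adgre1 was -0.10 to 1.17. Without CON ASO 1, that of Slc40a1 was -0.0069 with median-ratio scaling and -0.060 to 0.22 when a further liver was left out. Of 371 single values with all livers 306 kept their direction and their side of the threshold, and of 368 without CON ASO 1 293 did. Over all genes 473 were called with all livers, 45.7% of them higher, against 255 with no filter, 34.1% higher with median-ratio and 65.7% with protein-coding sum scaling. Without CON ASO 1 386 were called, 62.7% higher, and 258 with median-ratio (38.4% higher) and 183 with quantile scaling (39.3% higher). With no filter, none of the 11 members under 1 CPM passed an adjusted limma p of 0.05. The nearest were Folr2 (log2 fold change 2.26, adjusted p = 0.052), Spi1 (1.36, adjusted p = 0.106) and Itgb2 (1.37, adjusted p = 0.132), all without CON ASO 1.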
